A study of Mus musculus with 48 samples.

Results

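The 37 genes described here encode the contractile machinery of skeletal muscle and the proteins that excite and fuel it, and they were read on arrays of mouse skin RNA. Only probe sets annotated to a single gene were used, and where a gene had several, the one with the highest average signal stood for it. All 37 were found among 18194 named genes, 23 with a single probe set and 14 with several. By their known use, 14 were grouped as fast fibre genes, 7 as slow fibre genes and 16 as genes of both fibre types or of developing muscle.

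The series took skin of C3H/HeJ mice in a model of alopecia areata, in which T cells attack the hair follicle, and asked whether inhibitors of the interleukin-15 pathway prevent the disease. Of the treatments in the titles, il15rb is known to be a blocking antibody to the beta chain of the interleukin-15 receptor, and jak3i and jak12i are known to be tofacitinib and ruxolitinib, inhibitors of Janus kinases. Controls were given phosphate-buffered saline (PBS), named ip, pump or gavage after the route, and from what is known of the study the mice carried grafts of affected skin, apart from a sham group. By title, the week 5 arrays were 4 of sham, 4 of PBS ip and 3 of il15rb. Week 6 held PBS pump (n = 3), jak3i (n = 5), PBS gavage (n = 5) and jak12i (n = 5), and week 13 held il15rb, jak3i, jak12i and the 3 PBS groups with n = 3 each. The labels give the time on treatment as 5/6 or 12/13 weeks, name no age or sex, and do not say where on the body or how deep the skin was cut. Of 48 arrays, 47 were placed in these 13 groups, and 1 array of week 5 whose title and treatment label disagree was left out. Values are log2 signals, in which 1 unit is a doubling, and the median of the whole table was 6.70. Of 10 epidermis marker genes, all 10 had a median over the arrays above that value.

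Skeletal muscle shortens when myosin heavy chains, the motors of the thick filament, pull on thin filaments built of actin, tropomyosin and troponin. Calcium released from the sarcoplasmic reticulum binds troponin C and starts the pull, and a calcium pump ends it. Fast and slow fibres use different genes for many of these parts. In mouse skin such transcripts are known to come from the panniculus carnosus, a thin sheet of mainly fast fibres beneath dermis and fat. In bulk RNA, fewer muscle fibres and less muscle RNA per fibre cannot be told apart.

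Myosin heavy chain genes parted from each other and from actin on some arrays, so the 150 bases before the annotated start of 6 such genes are shown, from RefSeq (GRCm38.p6) and 5′ to 3′. Capitals mark matches on either strand to an E-box (CANNTG), the MEF2 motif, the CArG box or TATAAA, which myogenic factors, MEF2, serum response factor and the basal machinery are known to bind. Marked matches can overlap. Myh7 has another annotated start, whose window (chr14:54994627-54994776) is not shown and also held an E-box.
Myh4 (chr11:67237662-67237811, plus strand): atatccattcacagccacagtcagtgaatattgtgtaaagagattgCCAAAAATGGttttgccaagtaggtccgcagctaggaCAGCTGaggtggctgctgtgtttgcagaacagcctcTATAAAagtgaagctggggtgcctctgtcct
Myh1 (chr11:67199952-67200101, plus strand): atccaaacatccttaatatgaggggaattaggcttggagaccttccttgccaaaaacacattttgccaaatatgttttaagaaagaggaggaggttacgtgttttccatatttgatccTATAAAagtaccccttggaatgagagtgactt
Myh2 (chr11:67170877-67171026, plus strand): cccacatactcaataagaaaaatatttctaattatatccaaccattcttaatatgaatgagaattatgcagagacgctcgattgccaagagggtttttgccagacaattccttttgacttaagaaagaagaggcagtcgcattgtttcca
Myh8 (chr11:67276974-67277123, plus strand): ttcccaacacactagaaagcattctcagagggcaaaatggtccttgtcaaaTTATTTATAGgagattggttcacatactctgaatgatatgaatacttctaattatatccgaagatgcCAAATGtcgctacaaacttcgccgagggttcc
Myh7 (chr14:54994550-54994699, minus strand): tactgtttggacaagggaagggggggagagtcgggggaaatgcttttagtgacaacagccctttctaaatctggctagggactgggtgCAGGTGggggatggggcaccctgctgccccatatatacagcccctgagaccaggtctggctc
Acta1 (chr8:123894776-123894925, minus strand): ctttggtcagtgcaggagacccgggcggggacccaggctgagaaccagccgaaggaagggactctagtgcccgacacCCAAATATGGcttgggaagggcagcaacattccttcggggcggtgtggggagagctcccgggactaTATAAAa
Myh4, Myh1, Myh2 and Myh8 lie within 1 stretch of chromosome 11. In these bases Myh4 held an E-box, a CArG box and the TATA sequence, the actin gene held the last 2, and Myh2 held none of the 4. RefSeq windows from 250 bases before to 50 after a start were at hand for 31 of the 37 genes, in 38 windows. The E-box of the form CAGCTG stood in 19 of the 38 windows (50%) and in 16.3% of all 32851 windows of that length. The MEF2 motif stood in 13.2% of the muscle windows and 3.19% of all, the CArG box in 13.2% and 1.63%, the TATA sequence in 21.1% and 13.6%, and any E-box, the form above included, in 84.2% and 72.3%. These counts describe letters in a window and say nothing of factor binding.

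To put arrays on 1 scale, each gene's value was set against its median over the arrays of the same title week, and the median of these differences over the 37 genes was taken as the skeletal muscle level of an array. The level lay between -0.53 and 0.79 on 42 arrays. It was at or below -1 on the other 5: -5.39 on PBS gavage week 6 replicate 5, -4.91 on PBS pump week 13 replicate 2, -4.79 on PBS ip week 13 replicate 3, -2.37 on PBS ip week 13 replicate 1 and -1.13 on PBS gavage week 6 replicate 3. All 5 belonged to PBS groups, which held 21 arrays, and none to the other 26 arrays. On the first 3 of them 15, 17 and 22 of the 37 genes lay below the table's median, against at most 5 on any other array.

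**Figure D1:**
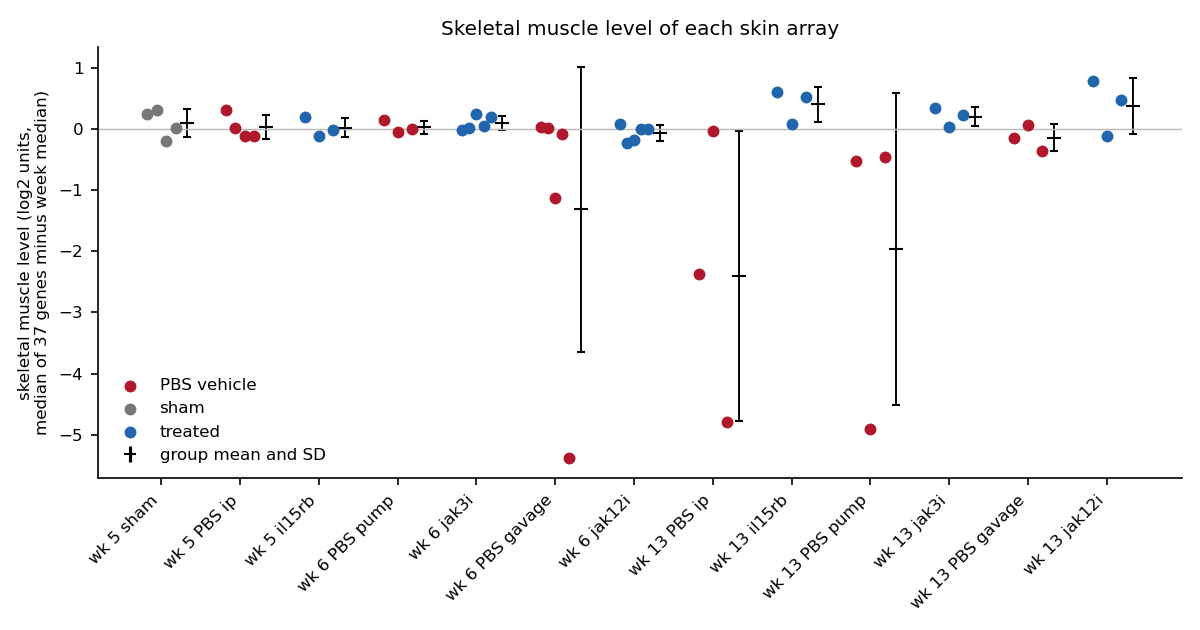
Skeletal muscle level of each of 47 arrays (points, log2 units) by group, the median over 37 genes of the value minus the gene's median of the week, with the group mean and SD beside the points. The 5 arrays at -1.13 and below are PBS arrays, and the sham and treated arrays lie between -0.23 and 0.79.

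Muscle genes varied more between arrays of 1 group than most genes did. The median SD within groups was 1.18 over the 37 genes and 0.162 over all 13648 genes tested, and without the 3 lowest arrays it was 0.486 over the 37. Neb, which encodes the thin filament ruler nebulin, had the widest range over the arrays, 8.10, and Tpm2, a tropomyosin that smooth muscle also uses, the narrowest, 1.12. That is the range of the probe set used, and other probe sets of Tpm2 had ranges of 1.48, 3.43 and 3.67. For Myl3 the range was 2.05 on the probe set used and 3.25 on another. The ranges of fast fibre genes ran from 5.56 to 7.73 and those of slow fibre genes from 2.05 to 6.58. Most slow fibre genes lay near the table's median, which limits how far they can fall. For 32 of the 37 genes the lowest value lay on 1 of the 3 lowest arrays, for 13 on PBS ip week 13 replicate 3, for 10 on PBS pump week 13 replicate 2 and for 9 on PBS gavage week 6 replicate 5.

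**Figure D2:**
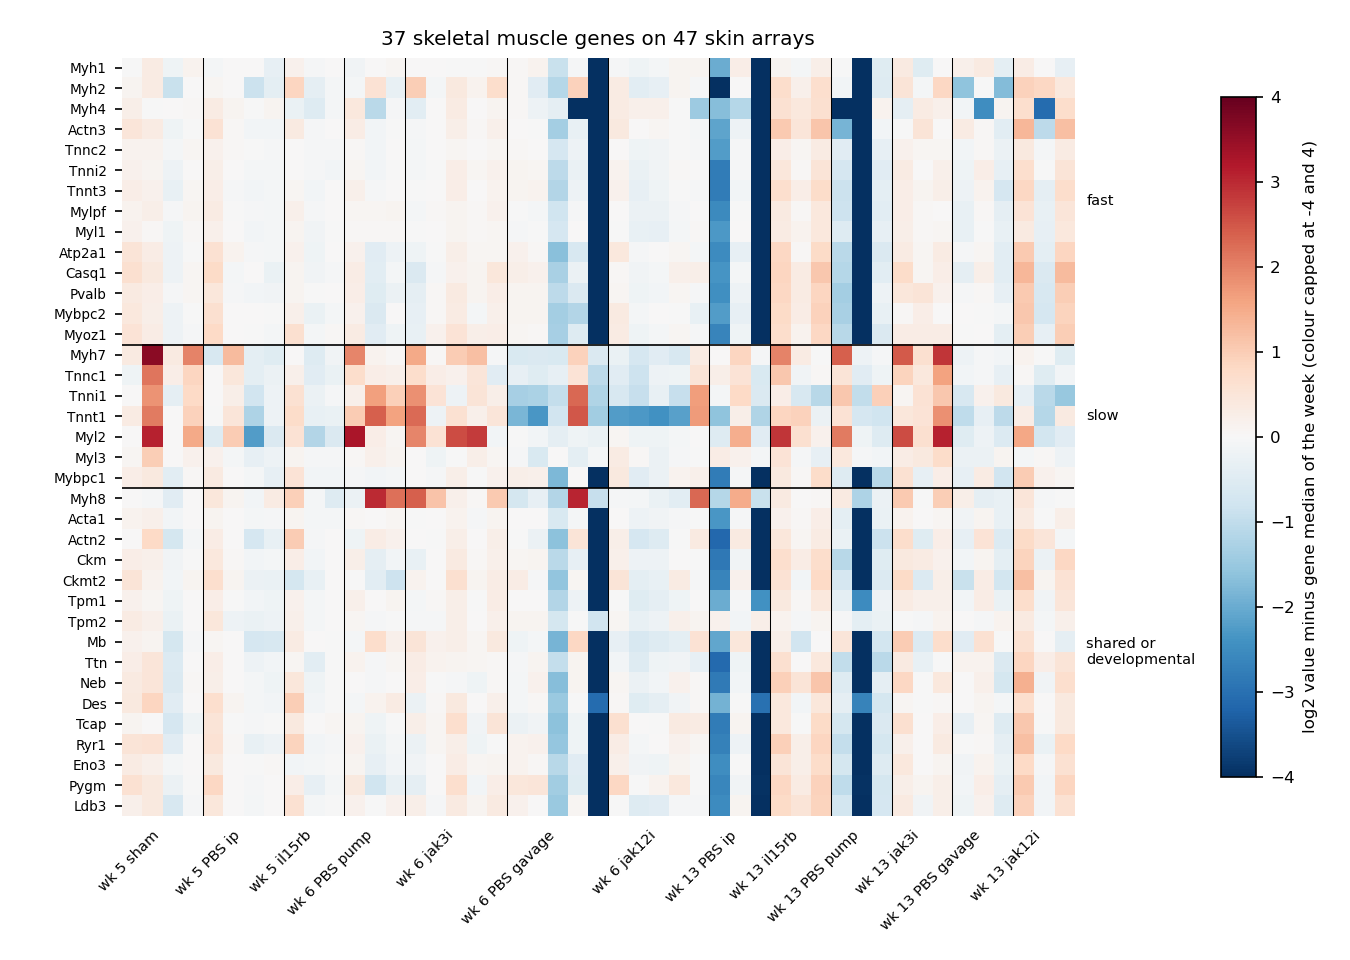
Log2 value minus the gene's median of the week for 37 genes (rows, by fibre class) on 47 arrays (columns, by group and replicate), with colours capped at -4 and 4. The 3 arrays with levels of -4.79 and below run dark blue through most fast and shared genes, while slow genes and Myh8 are red on other arrays.

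Of the thin filament genes, Acta1, skeletal alpha actin, lay between 14.15 and 14.53 on the arrays of weeks 5 and 6, apart from 13.78 and 8.29 on PBS gavage replicates 3 and 5. In week 13 it was 11.71, 14.01 and 8.36 with PBS ip, 13.64, 8.89 and 13.78 with PBS pump and 13.91, 14.15 and 13.73 with PBS gavage, against 14.02 to 14.39 on the 9 treated arrays. PBS ip replicates 1 and 3 and PBS pump replicate 2 were far below the treated arrays, and the other PBS arrays lay close to them. Tnnc2, troponin C of fast fibres, was 11.68, 13.85 and 8.29 with PBS ip, 13.43, 8.67 and 13.58 with PBS pump and 13.83 to 14.29 on the treated arrays of that week. Tnni2, troponin I of fast fibres, was 10.41, 13.16 and 7.82 with PBS ip, 12.53, 7.81 and 12.76 with PBS pump and 13.19 to 13.90 on the treated arrays. The same 3 arrays were low for both troponins. Values above 14 are close to the top of the scale, where arrays compress differences.

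Thick filament and giant filament genes were low on the same arrays. Mylpf, the regulatory light chain of fast fibres, was 10.97, 13.50 and 8.78 with PBS ip and 12.69, 8.78 and 13.07 with PBS pump in week 13, against 13.20 to 14.04 on the treated arrays. Ttn, titin, the spring that spans the sarcomere, was 9.32, 12.26 and 5.61 with PBS ip and 11.44, 7.02 and 11.36 with PBS pump, against 12.14 to 13.29. Des, desmin, which links Z discs and is also made by smooth muscle, was 8.87, 10.76 and 7.79 with PBS ip and 10.42, 8.11 and 10.08 with PBS pump, against 10.67 to 11.45. Its range over all arrays was 4.33, narrower than that of Ttn, 8.02.

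Genes of calcium handling and energy supply followed the same arrays. Atp2a1, the calcium pump of fast fibres, was 9.24, 11.44 and 6.81 with PBS ip and 10.68, 7.04 and 11.19 with PBS pump in week 13, against 11.35 to 12.81 on the treated arrays. Casq1, calsequestrin of the calcium store, was 8.17, 10.47 and 5.73 with PBS ip and 9.39, 5.46 and 10.10 with PBS pump, against 9.97 to 11.86. Pvalb, the calcium buffer parvalbumin, was 10.09, 12.32 and 6.39 with PBS ip and 11.18, 7.09 and 12.33 with PBS pump, against 11.89 to 13.57. In each of these 3 genes the lowest treated array was jak12i replicate 2, and for each at least 1 PBS ip array lay above it. Ckm, muscle creatine kinase, was 9.78, 12.49 and 7.26 with PBS ip and 11.51, 7.16 and 12.16 with PBS pump, against 12.40 to 13.51. Mb, myoglobin, the oxygen store of oxidative fibres, was 10.34, 12.89 and 7.71 with PBS ip and 12.91, 8.27 and 11.70 with PBS pump, against 11.67 to 13.45, so that 3 of these 6 PBS arrays lay within the treated range.

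Against PBS ip of week 13, 27 of the 37 genes were higher with il15rb and none lower (limma over 13648 genes, adjusted p under 0.05), where 25.7% of all genes were called. They were 13 of 14 fast fibre genes, 13 of 16 shared genes and 1 of 7 slow fibre genes, Mybpc1. Its median over the arrays was 12.46, and those of the other slow genes ran from 5.93 for Myl2 to 8.27 for Tnnt1. Those of the fast genes ran from 11.23 for Casq1 to 14.16 for Tnnc2. Genes near the table's median of 6.70 have little room to fall, so these counts are no even comparison of the fibre classes. The median change over the 37 genes was 2.92, and 0.01 over all genes tested. Myh2, the heavy chain of oxidative fast fibres, was 12.66, 12.19 and 12.65 with il15rb and 7.11, 11.99 and 6.42 with PBS ip. PBS ip replicates 1 and 3 were far lower and replicate 2 was just below the lowest il15rb array, and the rise was 4.0 ± 1.13 (SE; 16-fold; adjusted p = 0.0085 by limma). Myh4, the heavy chain of the fastest fibres, was 14.21, 14.0 and 14.23 with il15rb and 11.89, 12.45 and 6.59 with PBS ip, a rise of 3.84 ± 1.27 between groups that did not overlap.

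Neb rose by 3.85 ± 1.25, Ttn by 3.73 ± 1.18 and Acta1 by 2.85 ± 1.04, the last with the highest adjusted p of the 27, 0.0406 by limma. Among calcium handling genes, Ryr1, the calcium release channel, rose by 3.10 ± 0.85 with the lowest adjusted p, 0.00685 by limma, and Atp2a1, Casq1 and Pvalb rose by 3.15 ± 0.90, 3.17 ± 1.05 and 3.59 ± 1.14. Tnnc2 rose by 2.86 ± 1.01, Tnni2 by 3.09 ± 1.0, Mylpf by 2.69 ± 0.89 and Ckm by 3.34 ± 1.0. Des rose by 1.89 ± 0.57, with PBS ip replicate 2 inside the il15rb range. The other 13 called genes, Actn3, Tnnt3, Myl1, Mybpc2, Myoz1, Mybpc1, Actn2, Ckmt2, Tpm1, Tcap, Eno3, Pygm and Ldb3, rose by 1.76 to 3.60. They include Tnnt3, troponin T of fast fibres, Myl1, an essential light chain of fast fibres, Actn3, the Z disc actinin of fast fibres, and Eno3, muscle enolase.

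The 10 genes without a call were 6 slow fibre genes, Myh1, Myh8, Mb and Tpm2. Tnni1, troponin I of slow fibres, had an estimate of -0.53 ± 0.71, Myl3, a light chain of slow fibres, -0.08 ± 0.20 and Tpm2 -0.04 ± 0.19, the 3 lowest. For Myl3 and Tpm2 these hold for the probe set used, and others of these genes varied more over the arrays. Myh1, a further heavy chain of fast fibres, had 2.26 ± 0.93 with an adjusted p of 0.0708 by limma, and Mb 1.95 ± 1.0 with 0.152 by limma. Of the 37 genes, 23 had the il15rb arrays all above the PBS ip arrays and none had them all below, where the groups of 36.8% of all genes did not overlap. With 3 arrays against 3, an exact permutation test of 1 gene cannot go below 0.1.

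The calls depended on which arrays were in the fit. Without PBS ip replicate 3, 1 of the lowest arrays, none of the 27 genes kept its call, the median change of the 37 was 1.74 and the estimates of the 27 were 1.21 to 2.95. With PBS gavage week 6 replicate 5 and PBS pump week 13 replicate 2 left out as well, the estimates were the same and 26 of the 27 genes were called. These 3 arrays were picked by the level of the same 37 genes. Leaving them out lowered the median SD within groups of these genes from 1.18 to 0.486, so the 26 calls are no independent support. The count was 12 without PBS ip replicate 1, 13 without il15rb replicate 1 and 8 without il15rb replicate 3. It was 7 when the arrays of week 13 were fitted alone and 0 when these 2 groups were, where the SD of PBS ip ran from 1.26 to 3.33 over the 27 genes and that of il15rb from 0.11 to 0.48.

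Against PBS pump of week 13, Myh4 alone of the 37 genes was called with jak3i, where 16.0% of all genes were called. Myh4 was 13.24, 13.93 and 13.79 with jak3i and 8.62, 7.86 and 13.74 with PBS pump. PBS pump replicates 1 and 2 were low and replicate 3 lay inside the jak3i range, and the rise was 3.58 ± 1.27 (adjusted p = 0.0494 by limma). All 37 estimates were above 0 with a median of 2.21, and 27 had an unadjusted p under 0.05 by limma, against 29.8% of all genes. Without PBS pump replicate 2, the array of level -4.91, 36 estimates were above 0, the median was 0.81 and none had an unadjusted p under 0.05 by limma. Pvalb and Neb had the next largest estimates, 2.71 ± 1.14 and 2.70 ± 1.25, which were 1.16 ± 1.15 and 0.86 ± 1.24 without that array. Tnni1, Tpm2 and Myl3 had the smallest, 0.24 ± 0.71, 0.26 ± 0.19 and 0.39 ± 0.20, and that of Tnni1 was -0.43 ± 0.77 without it. The groups did not overlap for 25 genes, all higher with jak3i, against 29.7% of all genes. The call of Myh4 was lost on leaving out any 1 array of these groups other than PBS pump replicate 3. Its estimate was 3.44 to 3.78 with a jak3i array left out, and 2.85, 2.47 and 5.41 without PBS pump replicates 1, 2 and 3. Without PBS pump replicate 1 there were 6 calls among the 37 genes, and without replicate 3 there were 15. Against PBS gavage of the same week the estimate of Myh4 was 0.89.

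Against PBS gavage of week 13, none of the 37 genes was called with jak12i, where 21.9% of all genes were called, and none had an unadjusted p under 0.05 by limma, against 34.1% of all genes. The spread of these genes was pooled over all groups, low arrays of other groups included. Its median SD was 1.18, against 0.162 for all genes. The shares are thus no even comparison, and the lack of calls does not show absence of change. The median change was 0.50. Myh2 was 12.90, 12.80 and 12.40 with jak12i and 10.37, 11.96 and 10.24 with PBS gavage, the largest estimate at 1.84 ± 1.13, and its groups did not overlap. With only the 2 groups compared in the fit, its standard error was 0.44. Myh2 alone of the 37 genes was called in that fit (adjusted p = 0.0374 by limma). Ckmt2, mitochondrial creatine kinase of muscle, had 1.06 ± 1.07 and Casq1 0.85 ± 1.05. The lowest estimates were -0.94 ± 0.71 for Tnni1, -0.07 ± 0.93 for Myh1 and -0.01 ± 0.42 for Tnnc1, troponin C of slow fibres. Only Myh2 and Ttn had groups that did not overlap, against 37.0% of all genes. The PBS gavage arrays of week 13 had muscle levels from -0.36 to 0.08, with no array as low as the lowest of the other PBS groups of that week, and with PBS pump as the control 17 of the 37 genes were called.

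**Figure D3:**
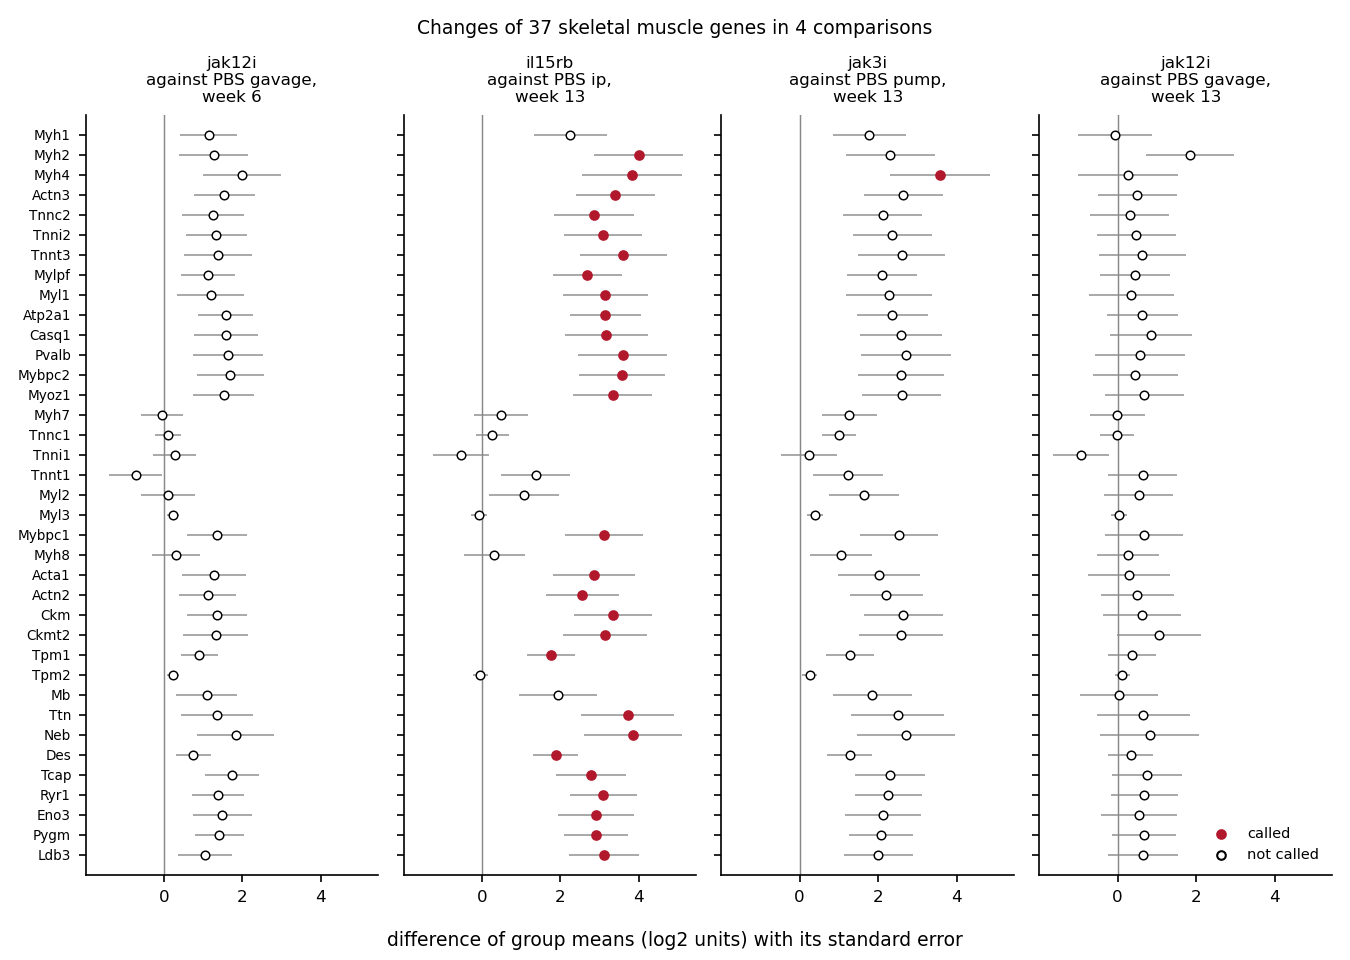
Difference of group means in log2 units with its standard error for 37 genes in 4 comparisons, red where the adjusted p was under 0.05. The il15rb panel has 27 red points, the week 13 jak3i panel has 1, and both jak12i panels have none.

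In week 6, none of the 37 genes was called with jak12i against PBS gavage, where 9.59% of all genes were called, and 4 of the 37 (Atp2a1, Tcap, Ryr1 and Pygm) had an unadjusted p under 0.05 by limma, a smaller share than the 25.5% of all genes. As the muscle genes varied more within groups than most genes, these shares are no even comparison. The median change was 1.28. Without PBS gavage replicate 5 it was 0.21, and no member had an unadjusted p under 0.05 by limma. Myh4 was 14.12, 13.99, 14.0, 13.76 and 12.33 with jak12i and 13.84, 13.60, 13.45, 9.35 and 8.0 with PBS gavage. PBS gavage replicates 4 and 5 were the low arrays, and the estimate was 1.99 ± 0.99. Neb had 1.83 ± 0.97 and Tcap, which caps titin at the Z disc, 1.74 ± 0.69. Without replicate 5 the estimates of Myh4, Neb and Tcap were 1.08 ± 0.96, 0.36 ± 0.74 and 0.81 ± 0.57. The lowest estimates were -0.72 ± 0.69 for Tnnt1, troponin T of slow fibres, -0.04 ± 0.54 for Myh7 and 0.10 ± 0.33 for Tnnc1.

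With jak3i against PBS pump in week 6, none of the 37 genes was called, where 4.10% of all genes were called, and none had an unadjusted p under 0.05 by limma, against 16.0% of all genes. The pooled spread of the muscle genes took in the low arrays of other groups, so the lack of calls does not show absence of change. The median change was 0.04. The largest estimates were 0.67 ± 0.96 for Ckmt2, 0.37 ± 1.01 for Myh2 and 0.36 ± 0.79 for Myl2, and the lowest -1.0 ± 0.79 for Tnnt1, -0.69 ± 0.70 for Myh8 and -0.35 ± 0.64 for Tnni1.

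In week 5 the muscle levels lay between -0.19 and 0.32 on the 11 arrays in groups. The pooled spread of the muscle genes took in the low arrays of other weeks, so a lack of calls here does not show absence of change. With il15rb against PBS ip none of the 37 genes was called, where 0.0733% of all genes were called, and none had an unadjusted p under 0.05 by limma, against 4.02% of all genes. The median change was 0.00, the largest estimates were 0.49 ± 0.87 for Actn2, 0.43 ± 1.06 for Myh2 and 0.41 ± 0.93 for Mb, and the lowest -0.41 ± 1.19 for Myh4, -0.40 ± 1.0 for Ckmt2 and -0.26 ± 0.77 for Pygm. With PBS ip against sham none was called either, where 0.0293% of all genes were called, and 4 slow fibre genes (Myh7, Myl2, Tnnc1 and Myl3) had an unadjusted p under 0.05 by limma, against 5.00% of all genes.

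Whether a change against the control differed between the weeks of a treatment was tested in the same fit. For il15rb, week 13 against week 5, none of the 37 genes was called, where 10.6% of all genes were, and 25 had an unadjusted p under 0.05 by limma, against 27.3% of all genes. Pygm, muscle glycogen phosphorylase, had the lowest adjusted p, 0.0609 by limma, with a difference of 3.17 ± 1.12. For jak3i none was called, where 9.20% of all genes were, and 1 (Tnnc1) had an unadjusted p under 0.05 by limma, against 23.9% of all genes. For jak12i none was called, where 16.1% of all genes were, and none had an unadjusted p under 0.05 by limma, against 29.9% of all genes. The muscle genes varied more within groups than most genes, so a lack of calls in these tests does not show that the weeks were alike. The 0 for il15rb became 27 without PBS ip week 13 replicate 2 and 17 without the 3 arrays of lowest muscle level. As those 3 were picked by the level of the 37 genes, the 17 calls are no independent support.

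Some muscle genes outside the 37 were called in the same tests between weeks. For il15rb, 4 of 23 other sarcomere, 0 of 14 excitation-contraction, 5 of 16 metabolic and 3 of 20 regulator and junction genes had a higher change in week 13, and none a lower one. These were 12 of the 73 genes tested, where 10.6% of all genes were called in either direction. The smallest p-values were those of Fbp2, muscle fructose bisphosphatase, with a difference of 3.34 ± 0.72, Phkg1, a subunit of muscle phosphorylase kinase, with 2.36 ± 0.63, Capn3, a muscle calpain, with 2.11 ± 0.59 and Ldha, a lactate dehydrogenase that many tissues make, with 0.86 ± 0.25. Without PBS ip week 13 replicate 3, 1 of these 73 genes was called. For jak3i, Mylk2, skeletal myosin light chain kinase, had a difference of 1.23 ± 0.39 and Eya4, a transcriptional cofactor, 1.95 ± 0.56, and neither was called without PBS pump week 13 replicate 2. These 2 were the only calls among the 73, a smaller share than the 9.20% of all genes. For jak12i none of the 73 was called, where 16.1% of all genes were, and 1 had an unadjusted p under 0.05 by limma, against 29.9% of all genes.

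Fast heavy chains did not move as 1 block. On PBS gavage week 6 replicate 4, Myh4 was 9.35 while Acta1 was 14.31, Myh2 13.41 and Myh1 13.93. On PBS pump week 13 replicate 1, Myh4 was 8.62 while Acta1 was 13.64, Myh2 11.87 and Myh1 13.38. On jak12i week 13 replicate 2, Myh4 was 10.52 while Acta1 was 14.02, Myh2 12.80 and Myh1 13.40. On these arrays Myh4 was thus low for its own range while the other 3 genes were not, and PBS gavage week 13 replicate 2 had a smaller dip of Myh4, to 11.10. On PBS ip week 13 replicate 1 all 4 genes lay below their medians of the week, Myh2 by the most, with differences of -4.86 for Myh2, -2.33 for Acta1, -1.99 for Myh1 and -1.70 for Myh4. Heavy chain genes are paralogs, and the probe set of Myh1 is of a type whose probes can match other transcripts.

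Slow fibre genes were high on another set of arrays. Myh7, the heavy chain of slow fibres, was 6.74, 10, 6.77 and 8.40 on the sham arrays and 5.76, 7.66, 5.99 and 5.91 on the PBS ip arrays of week 5, so that sham replicate 2 stood highest and the groups overlapped. Myl2, the regulatory light chain of slow fibres, was 7.65, 10.71, 7.64 and 9.15 and 7.13, 8.66, 5.42 and 7.06 on the same arrays, and Tnnc1 was 7.33, 9.64, 7.77 and 8.36 and 7.51, 7.97, 7.12 and 7.26. PBS ip less sham was -1.72 ± 0.77 for Myl2, -1.65 ± 0.60 for Myh7 and -1.08 ± 0.77 for Tnnt1, the lowest estimates, and 0.31 ± 0.68 for Myh8, 0.29 ± 0.77 for Tcap and 0.12 ± 0.77 for Ldb3, the largest. Sham replicate 2 held the highest value of Myh7, Myl2 and Tnnc1 among all 47 arrays. In week 13 Myh7 was 8.26, 6.43 and 8.66 with jak3i, 8.19, 5.61 and 5.76 with PBS pump, 7.79, 6.12 and 5.77 with il15rb and 5.31 to 5.92 with jak12i or PBS gavage. Mybpc1, slow myosin-binding protein C, was placed with the slow genes for its name but had the widest range of them, 6.58, and was low on the 3 lowest arrays, at 7.24, 6.52 and 6.57.

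Further arrays, all of week 6, were high for Myh8, the perinatal heavy chain, which is made in developing and regenerating fibres. Myh8 was 11.33 on PBS gavage replicate 4, 11.26 and 10.51 on PBS pump replicates 2 and 3, 10.68 on jak3i replicate 1 and 10.58 on jak12i replicate 5, and at most 9.44 on the other 42 arrays. On the same 5 arrays, in that order, Tnni1 was 9.70, 9.05, 8.36, 9.23 and 9.08, and its highest value elsewhere was 8.85 on sham week 5 replicate 2. Tnnt1 was 11.02, 10.93, 10.14, 10.80 and 10.23 there, and on sham week 5 replicate 2 it was 10.43, above 2 of the 5. The arrays came from 4 groups, controls and treatments alike. Myog, Chrna1 and Sln, chosen after their values were seen, were high there too and do not stand for other muscle genes. On these arrays, in the same order, the level of the excitation-contraction list was -0.07, -0.09, -0.01, -0.11 and 0.12. That of the regulator and junction list was 0.25, 0.30, 0.21, -0.02 and 0.24. Myog, a myogenic transcription factor, was 9.93, 10.13, 8.87, 9.64 and 8.77, and at most 8.35 elsewhere. Chrna1, the alpha subunit of the muscle acetylcholine receptor, was 10.21, 10.26, 10.10, 9.58 and 9.08, and at most 8.68 elsewhere. Sln, sarcolipin, which regulates the calcium pump, was 12.37, 12.53, 12.37, 11.53 and 11.38, but reached 11.57 on il15rb week 5 replicate 1.

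**Figure D4:**
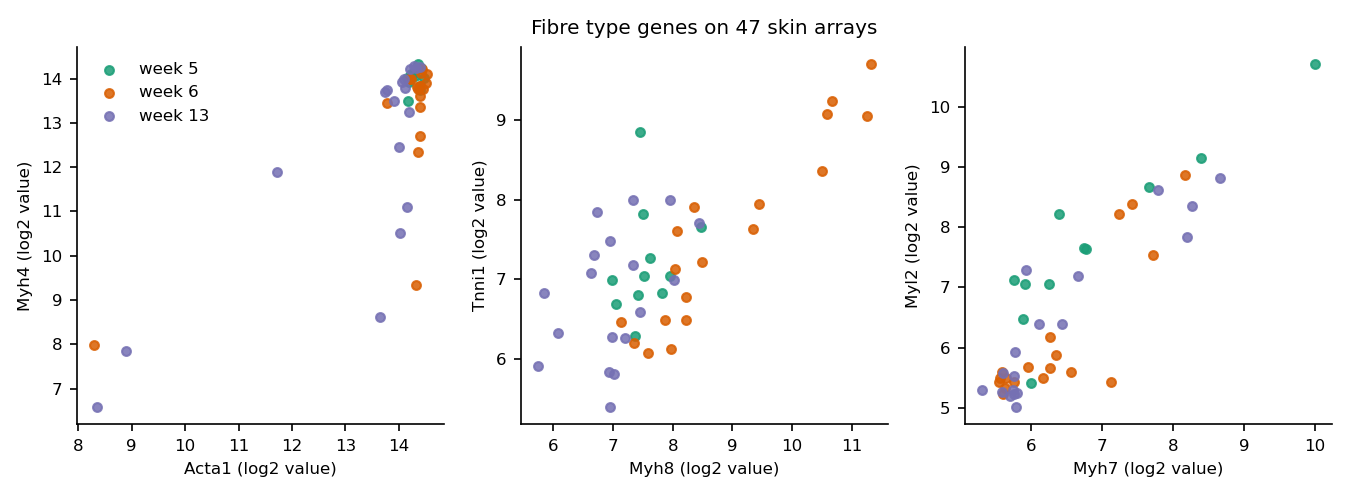
Log2 values on 47 arrays (points, coloured by week): Myh4 against Acta1, Tnni1 against Myh8, and Myl2 against Myh7. Arrays with Acta1 above 13 spread in Myh4 from 8.62 to 14.32, 5 week 6 arrays have Myh8 above 10, and the array highest in both Myh7 and Myl2 is of week 5.

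Other skeletal muscle genes were called in the same comparisons, 73 being tested. With il15rb against PBS ip of week 13, 16 of 23 other sarcomere genes were higher and 1 lower, 11 of 14 excitation-contraction genes higher and 1 lower, 14 of 16 metabolic genes higher, and 11 of 20 regulator and junction genes higher, where 25.7% of all genes were called in either direction. Without PBS ip replicate 3 the higher counts of the 4 lists were 3, 1, 3 and 3, and without all 3 lowest arrays 13, 8, 12 and 10. The smallest p-values were those of Mylk2, which rose by 1.47 ± 0.29, Fbp2 by 2.51 ± 0.52, Myoz3, a Z disc protein, by 2.63 ± 0.55 and Capn3 by 1.93 ± 0.43. The lower genes were Tpm3, a tropomyosin of slow fibres and of many other cells, which fell by 0.36 on the log2 scale, and Atp2a2, the calcium pump of slow fibres and other cells, which fell by 0.30.

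With jak3i against PBS pump of week 13, 4 of 23 other sarcomere genes were higher and 1, Tpm3, lower, and 4 of 14 excitation-contraction, 4 of 16 metabolic and 6 of 20 regulator and junction genes were higher, where 16.0% of all genes were called in either direction. Without PBS pump replicate 2 none of the 73 was called as higher. Mylk2 rose by 1.12 ± 0.29, Sgca, a sarcoglycan of the fibre membrane, by 1.75 ± 0.50 and Myoz3 by 1.91 ± 0.55, and Tpm3 fell by 0.41 on the log2 scale. With jak12i against PBS gavage of week 13, Dmd, dystrophin, rose by 0.58 ± 0.17, Mylk2 rose by 0.82 ± 0.29 and Tpm3 fell by 0.36 on the log2 scale. These were the only calls among the 73 genes there, against 21.9% of all genes. In week 6 Fbp2 rose by 1.37 ± 0.41 with jak12i, a call lost without PBS gavage replicate 5, and Tpm3 fell by 0.35 on the log2 scale. No gene of these lists was called by limma in the other 3 comparisons.

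Markers of other tissues were set beside these results. In week 13, 25.7% of all genes were called with il15rb, 16.0% with jak3i and 21.9% with jak12i, in either direction. The level of the epidermis list stayed between -0.28 and 0.24 on the 47 arrays, and was 0.17, 0.19 and -0.11 on the 3 arrays of lowest muscle level (PBS gavage week 6 replicate 5, PBS pump week 13 replicate 2 and PBS ip week 13 replicate 3). The level of 10 white adipocyte genes was -0.07, -0.55 and -1.39 on these arrays. In week 13 it ran from -1.39 to -0.26 with PBS ip and from 0.53 to 1.0 with il15rb, and all 10 genes were called as higher. It ran from -0.55 to -0.36 with PBS pump and from 0.07 to 0.61 with jak3i, with 6 of 10 called as higher. With jak12i against PBS gavage all 10 adipocyte genes were called as higher too. None of the 37 muscle genes was, but they varied more within groups than most genes. Counts of calls are thus no even comparison of muscle with other tissues.

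Of 10 smooth muscle genes, 6 were called as higher with il15rb in week 13, with levels from 0.05 to 0.52 against -0.75 to -0.23 with PBS ip. All 8 T cell genes were called as lower in that comparison, with levels from -0.93 to -0.72 against 0.27 to 0.88 with PBS ip. With jak3i of week 13, 5 smooth muscle genes were called as higher and 7 T cell genes as lower, and with jak12i 4 and 5. Endothelial genes were called as higher in 5 of 6 with il15rb, 6 of 6 with jak3i and 6 of 6 with jak12i in week 13. Their level ran from 0.15 to 0.31 with il15rb, 0.22 to 1.01 with jak3i and 0.38 to 0.42 with jak12i, against -0.60 to -0.28, -0.93 to -0.17 and -0.74 to -0.21 with PBS ip, pump and gavage. Nerve and glia genes were called as higher in 2, 3 and 3 of 3 tested in the same order. Dermal matrix genes were called as higher in 3, 3 and 0 of 9, tendon genes in 1, 3 and 1 of 5, brown adipocyte genes in 1, 1 and 1 of 3 and macrophage genes in 1, 0 and 1 of 8. Of 9 hair shaft genes 8 were called as lower with jak12i and none with the other agents, and of 10 epidermis genes 1 was higher and 2 lower with il15rb and 1 higher and 2 lower with jak12i. Counts near or below the shares of all genes, such as those of epidermis, macrophage and brown adipocyte genes, are not read as results about those tissues. The part of these tissues in the muscle results was not tested. Of 9 cardiac genes 2 had a median above the table's median, and the level of that list stayed between -0.19 and 0.15.

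**Figure D5:**
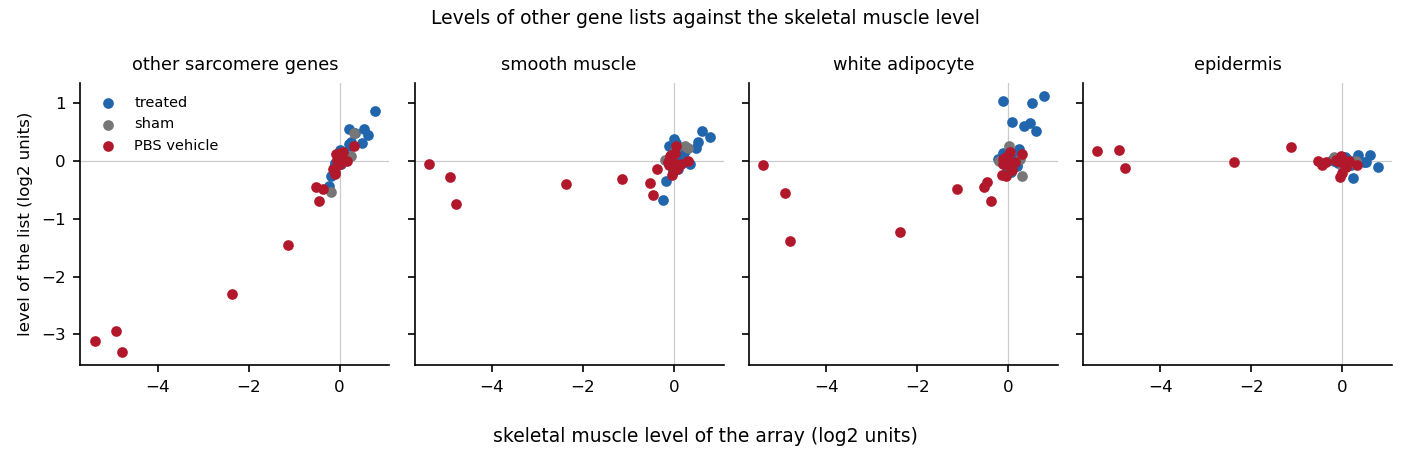
Level of 4 gene lists on each of 47 arrays against the skeletal muscle level of the same array, both in log2 units, coloured by kind of group. The other sarcomere genes fall to -3.31, the smooth muscle and white adipocyte lists reach -0.75 and -1.39, and the epidermis list stays between -0.28 and 0.24.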

How the data were processed

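Total RNA of skin was labelled with biotin and hybridised to Affymetrix arrays per the labels' protocols. The deposited values were log2 signals of 45101 probe sets, made by the authors with RMA (version not stated) per the submitters' processing notes. Probe sets naming 1 gene symbol numbered 34958, 932 named several and 9211 none, and 34754 were brought to current symbols through their Entrez identifier. A gene was tested where 3 or more arrays exceeded 6.70, the median of the table, which left 13648 genes and all 37 muscle genes. Group means were estimated from the 47 arrays together in limma 3.58.1 (R 4.3.3, lmFit and eBayes), and a gene was called at a Benjamini-Hochberg adjusted p under 0.05, adjusted over the genes of that comparison. The procedure was tested on simulated data with independent noise of equal spread in all groups. Genes that fall together on single arrays were not simulated, so that test does not vouch for calls on the muscle genes. Each treatment was set against the PBS group of its own route, as known of the study (ip for il15rb, pump for jak3i, gavage for jak12i).

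The 37 genes, their classes and all other lists were chosen with earlier results of these data known. Named are 19 preset muscle genes, every called member, the 3 largest and 3 lowest estimates of each comparison and, of the wider muscle lists, every called gene where 5 or fewer were called and otherwise the 4 of smallest p. Myog, Chrna1 and Sln were added after their values were seen. Arrays of the same replicate number correlated between -0.492 and 0.236 after group means were removed, so the numbers were not taken to pair arrays. The series text calls the arrays of a group biological replicates. In the main fit the p-values use, for each gene, the spread between such arrays pooled over all groups. They do not measure the spread of the compared groups alone, which can be wider or narrower. The number of arrays limits the precision. Alternatives were another filter, probe set rule or normalization, array weights, fewer arrays in the fit, a replicate block, each replicate left out and another PBS control. Leaving out the 3 arrays of lowest muscle level, and each replicate in the tests between weeks, was chosen after seeing the data. Those 3 arrays were picked by the values of the 37 genes, and leaving them out lowered the spread used in every comparison of these genes.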

Additional observations from a re-analysis of the deposited data

Results flagged for a closer look

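Among groups of 4 or 5 arrays, 110 sets of values were checked for an end value far from the others (Dixon's criterion), and 22 had one, where chance flags about 1 in 20 groups. Values of 1 array are not independent of each other. PBS gavage week 6 replicate 5 was low for Myh1 (8.91), Acta1 (8.29), Tnni2 (8.05), Tnnc2 (8.53), Mylpf (8.80), Ckm (7.56), Pvalb (6.29), Casq1 (5.0) and Ttn (6.08), for the skeletal muscle level (-5.39) and for the level of fast fibre genes (-5.87). PBS gavage week 6 replicate 4 was high for Myh7 (7.12), Myh8 (11.33) and Tnni1 (9.70).

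In jak12i of week 6, replicate 5 was low for Myh4 (12.33) and high for Myh8 (10.58), Tnni1 (9.08) and Mb (13.59) and the level of slow fibre genes (0.63). In week 5, Myh7 was high on PBS ip replicate 3 (7.66), Mylpf was high on PBS ip replicate 2 (14.34) and Myh8 was low on sham replicate 3 (7.04). Groups of 3, among them PBS ip and PBS pump of week 13, were not checked in this way.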

How the results depend on the processing

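The median change over the 37 genes stayed above 0 under every alternative run in the 3 treatment comparisons of week 13. In jak12i against PBS gavage of week 6 it ran from -0.04 with PBS pump as the control to 1.62. Fitted with a replicate block, the number of calls was 0 for il15rb and 0 for jak3i in week 13, and the week 5 median of il15rb was -0.28. The block changed no count of calls in the other 5 comparisons within a week. For il15rb in week 13 the 27 calls became 7 with arrays of that week only and 0 with the 2 groups only, and ran from 0 to 29 with 1 replicate left out. Without the 3 arrays of lowest muscle level there were 27, of which 26 were among the original ones. For jak3i in week 13 the 1 call became 0 with no filter on low values, 0 with each array centred on its median, 0 with arrays of that week or the 2 groups only, 0 without the 3 lowest arrays, 4 with the mean of all probe sets and 4 with array weights, and ran from 0 to 15 with 1 replicate left out. With PBS gavage as its control it called 2 (Myh7 and Myl3), with a median of 0.37 and a mean change of fast less slow genes of -0.87 against 1.29. In week 6 jak3i against PBS gavage called 3 (Myl2, Tpm1 and Tcap) with a median of 1.45, and jak12i against PBS pump called 1 (Tnnt1). For jak12i in week 13 there was 1 call (Myh2) with the 2 groups only and 1 (Myh2) without the 3 lowest arrays, and against PBS pump 17, with a median of 2.44 and a fast less slow change of 2.59. The test of il15rb between weeks called 1 with the mean of all probe sets, 17 without the 3 lowest arrays and 0 to 27 with 1 replicate left out. The cause was not tested. The genes called in the main fit, 27 with il15rb and Myh4 with jak3i in week 13, lost a call 166 times over all alternatives. None of these genes reversed its direction. Genes without a call in the main fit were not counted here. Genes near background, such as Myh7 on most arrays, have compressed changes.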

Other observations

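The array of week 5 whose title and treatment label disagree had a skeletal muscle level of 0.10, a fast fibre level of 0.11 and a slow fibre level of 0.59. On it Acta1 was 14.32, Myh4 14.01, Myl2 9.15 and Tnnt1 9.48.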
